A study of Mus musculus with 24 samples.

Results

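Podxl, L1td1, Snhg3, Eef1a2 and AK213636 are 5 of the 33079 genes in the exon table, and all 5 were chosen by symbol because they had been listed as rhythmic in both genotypes without being clock genes. Rhythm within each genotype therefore chose them, so every value on rhythm below is a description with no test. The question put to them was whether their profiles come back each day or are a change that libraries share. All 5 were among the 15112 genes expressed in wild type (WT) or Rev-erbα/β-deficient (KO) cells, that is with a mean above 0.5 RPM, reads scaled to the library total alone. Of the 5, Eef1a2 differed in level between the genotypes. Podxl and L1td1 moved with many genes of pluripotent cells and of endoderm, and the profiles of Snhg3 and AK213636 varied by about as much as counting a few fragments does.

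The libraries came from mouse embryonic stem (ES) cells that carry a Per2::Luciferase knock-in, in which the clock protein PER2 is fused to a light-emitting enzyme, and both genotypes carry it. KO cells lacked in addition an exon of each of Rev-erbα (Nr1d1) and Rev-erbβ (Nr1d2), removed with CRISPR/Cas9 in picked colonies, so genotype and cell line cannot be told apart. Both were differentiated through embryoid bodies to day 28, treated with dexamethasone at 100 nM, a synthetic steroid used to bring cultured cells into the same clock phase, and collected every 4 h from 12 to 56 h later. There were 12 WT and 12 KO libraries, 1 for each genotype and hour, and each pooled RNA from 3 embryoid bodies, so no hour had a replicate. The targeted genes were not lower at the level of the whole gene, since Nr1d1 was higher in KO at 9 of 12 hours and Nr1d2 at 12 of 12, and whole-gene values cannot show the loss of 1 exon.

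The circadian clock is a feedback loop in which CLOCK and BMAL1 activate the Per and Cry genes, whose proteins then repress them, and in which the REV-ERB receptors repress genes with a ROR element. Clock output genes such as Dbp, Tef and Hlf, which encode transcription factors, follow the loop. None of the 5 genes belongs to it. Podxl encodes podocalyxin, a sialic acid-rich membrane protein of kidney podocytes, vessels and pluripotent cells. L1td1 encodes an RNA-binding protein derived from a LINE-1 element and abundant in pluripotent cells. Snhg3 is a non-coding host gene of small nucleolar RNAs, Eef1a2 encodes the form of translation elongation factor 1 alpha found in adult neurons and muscle, and AK213636 is a transcript named only by its database record.

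AK213636 is shown by sequence because its letters bear on what its value measures. In the deposited table it was 139 bases of exon on the minus strand of chromosome 6, from 7983245 to 7983384 on GRCm38. All but 1 base of that span lay in Gm9825, which GENCODE lists as a processed pseudogene, at 7982541 to 7983383 on the same strand. A processed pseudogene is a copy of an mRNA put back into the genome. The stretch, read from the GENCODE transcript, is printed below, 5′ to 3′.
AK213636: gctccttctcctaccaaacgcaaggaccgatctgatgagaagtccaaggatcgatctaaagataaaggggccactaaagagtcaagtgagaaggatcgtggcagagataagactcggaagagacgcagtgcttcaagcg
Of these 139 bases, 139 were identical to bases 255 to 393 of an mRNA of Rnps1, which encodes a splicing protein of the exon junction complex. That match lay within exon 3 of 8 of the Rnps1 transcript, on the plus strand of chromosome 17 at 24418458 to 24418596, and all 139 bases were coding. No exon junction fell inside it, and over the 843 bases of the pseudogene 838 were identical to the mRNA (99.4%). Of all GENCODE transcripts, only those of Gm9825 and Rnps1 held the stretch. A read of 101 bases that lies within it is the same for both places, and the authors removed alignments with a mapping quality under 10, so the level of AK213636 is uncertain.

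Copies of the other 4 genes were not searched for. Podxl lay on the minus strand of chromosome 6 at 31519493 to 31563937 with 5322 exonic bases, and L1td1 on the plus strand of chromosome 4 at 98726754 to 98738486 with 2937. Snhg3 lay on the minus strand of chromosome 4 at 132351933 to 132353686 with 434 exonic bases, and Eef1a2 on the minus strand of chromosome 2 at 181147692 to 181157015 with 2038. No gene of the table overlapped any of the 5. Within 10 kb, Inadl lay 7151 bases from L1td1, and Phactr4 and Rcc1 lay 2239 and 6183 bases from Snhg3.

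RefSeq promoters (GRCm38.p6, 250 bases before to 50 after the start) were found for 3 of the 5 genes, L1td1, Snhg3 and Eef1a2. On either strand none of the 3 held the E-box CACGTG (in 7.15% of 32851 promoters) or the D-box TTATGTAA (0.938%). Nor did any hold AGGTCA, a part of the REV-ERB and ROR element (16.3%), or AGAACA, a part of the glucocorticoid receptor element (19.0%). The whole elements were not searched for. A CCAAT box, present in 37.4% of promoters, began at base -57 of Snhg3 alone. That promoter, chr4:132353637-132353936 on the minus strand, is printed because it held the single match, with the CCAAT box in capitals.
Snhg3: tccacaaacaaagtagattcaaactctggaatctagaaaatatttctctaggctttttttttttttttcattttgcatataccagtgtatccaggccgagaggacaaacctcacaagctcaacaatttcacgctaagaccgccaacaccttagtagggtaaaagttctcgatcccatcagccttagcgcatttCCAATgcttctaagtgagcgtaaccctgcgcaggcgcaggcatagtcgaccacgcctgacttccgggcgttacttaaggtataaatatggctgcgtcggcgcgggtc

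Levels are given as RPKM, reads scaled to the length of the exons and to the library total. Podxl was at 10.7 ± 2.95 RPKM in WT (SD, n = 12 hours) and 10.3 ± 2.79 in KO. In WT it was lowest at 28 h (7.02 RPKM), with a median of 9.58, and highest at 16 h (15.6) and 56 h (15.2). In KO it was lowest at 28 h (6.97 RPKM), with a median of 9.77, and highest at 16 h (15.3) and 56 h (14.3). The low and the highest hours were the same in both genotypes, and the WT and KO ranges overlapped almost wholly. With 554.5 to 1669 fragments per WT library, the variance over hours was 75.1 times that expected from counting in WT and 68.4 times in KO, so depth did not limit this profile.

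**Figure D1:**
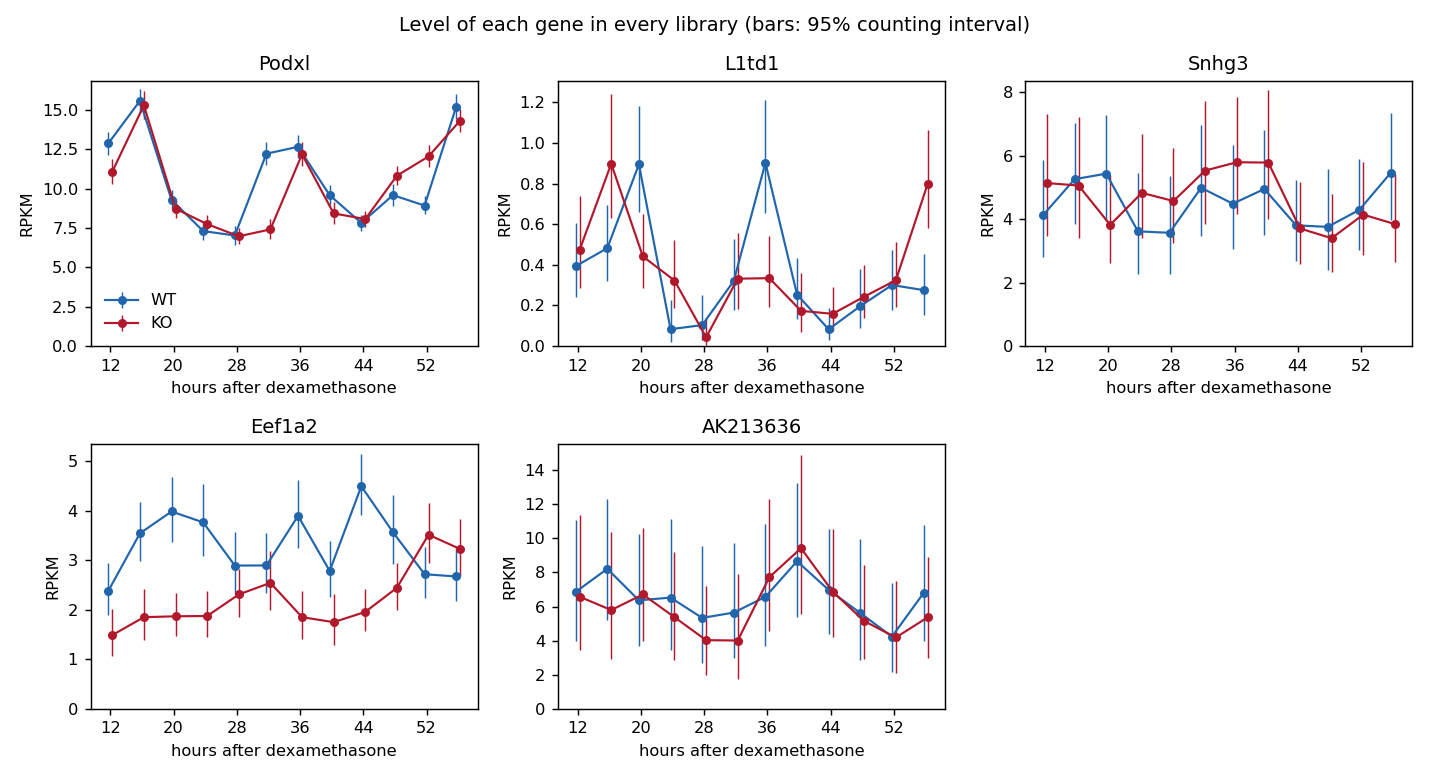
Level of each of the 5 genes in RPKM against hours after dexamethasone, with 1 point per library, WT in blue and KO in red; bars are exact 95% Poisson intervals of the fragments counted. Podxl was highest at 16 h in both genotypes, Eef1a2 was lower in KO at 10 of 12 hours, and the intervals of Snhg3 and AK213636 overlapped across hours.

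Some of the high hours of Podxl came back after 24 h and others did not. In WT its 12.9 RPKM at 12 h was followed at 36 h by 12.7, and its 12.2 at 32 h was followed at 56 h by 15.2. In KO its 11.1 RPKM at 12 h was followed at 36 h by 12.2. The highest hour, 16 h, with 15.6 RPKM in WT and 15.3 in KO, was followed 24 h later by 9.58 and 8.43, and in KO 7.41 RPKM at 32 h was followed at 56 h by 14.3. Over the 6 pairs of hours 24 h apart, Pearson's r was 0.43 in WT and -0.53 in KO, as against 0.74 to 0.998 in the 8 clock genes used for comparison (Per2, Per3, Cry1, Dbp, Tef, Hlf, Nr1d1 and Nr1d2). Over 7 pairs of hours 20 h apart it was 0.69 in WT and 0.36 in KO, within the 0.22 to 0.78 of the clock genes. When the period was left free between 20 and 28 h, the best cosine took 20.9 h in WT and 20 h, the shortest allowed, in KO. The clock genes took 21.6 to 24.8 h. WT and KO followed each other over the 12 hours with r = 0.79 (0.51 without the 2 hours farthest from the median). Here and for the other genes below, r between WT and KO is on RPKM, and the 2 hours left out are those farthest from the WT median, whatever the KO values. The median r over expressed genes, computed on log2(RPKM + 0.1) and so on another scale, was 0.14.

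L1td1 was scarce, at 0.357 ± 0.280 RPKM in WT and 0.378 ± 0.250 in KO. WT values ran from 0.0825 RPKM at 44 h through a median of 0.288 to 0.902 at 36 h, with 0.895 at 20 h. KO values ran from 0.0433 RPKM at 28 h through a median of 0.328 to 0.898 at 16 h, with 0.796 at 56 h. In each genotype a pair of libraries stood above the others, and these were different hours in WT and KO. The lowest KO value was 2.5 fragments, with an exact 95% Poisson interval of 0.00720 to 0.139 RPKM, and the highest was 36 fragments, 0.629 to 1.24 RPKM. Fragments counted in steps of 0.5, so such intervals are approximate and cover counting error only. Variance over hours was 11.2 times that of counting in WT and 8.23 times in KO. Hours 24 h apart gave r = -0.18 in WT and -0.33 in KO, and the best period was the shortest allowed, 20 h, in both. WT and KO gave r = 0.33 and Spearman's rho = 0.76, with r = 0.72 without the 2 hours farthest from the WT median. That removed the high WT hours, 20 and 36 h, but kept the high KO hours, 16 and 56 h.

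Podxl and L1td1 moved together, with r = 0.68 over 24 libraries after the mean of each genotype was removed (0.61 in WT and 0.76 in KO). The genes most like Podxl were Ubqln2 (r = 0.84), Apob (0.82) and Stx3 (0.82), which encode a protein of proteasome delivery, the apolipoprotein of hepatic lipoproteins and a syntaxin of apical membranes. The genes most like L1td1 were Apom (r = 0.80), Ttr (0.77) and Rbp4 (0.77), which encode plasma carriers of lipid, thyroid hormone and retinol made by visceral endoderm and liver. These correlations share library, depth and normalization and are descriptions.

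Marker lists put numbers to this likeness. Correlations of each of the 5 genes were computed with 12 lists, and the list of visceral endoderm and liver genes was added after Apob, Apom and Ttr had been seen, so that it is no independent evidence. Of its 16 genes, 14 had r over 0.5 with Podxl (median 0.65) and 13 with L1td1 (median 0.71). Of the 10 expressed rows of the pluripotent list, 7 had r over 0.5 with Podxl (median 0.52) and 7 with L1td1 (median 0.68). Over all expressed genes the median was 0.07 for Podxl and 0.09 for L1td1, with 5.29% and 4.94% over 0.5. Lin28a, which marks pluripotent cells, had r = 0.77 with L1td1 and 0.74 with Podxl. Pou5f1, another such marker, had r = 0.72 with L1td1 but 0.26 with Podxl (0.15 in WT). Podocyte genes had a median r of -0.17 with Podxl, and 0 of 9 were over 0.5. The summed endothelial list had r = 0.64 with Podxl, close to the summed pluripotent list (0.62) and the summed endoderm list (0.69). By sums, the likeness of Podxl was thus not limited to the latter lists. Gene by gene it was weaker for the endothelial list, where 3 of 14 genes had r over 0.5 with Podxl (median 0.35). With L1td1 the endothelial, pluripotent and endoderm sums had r = 0.49, 0.80 and 0.69.

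The summed level of the endoderm list ranged from 153 to 1508 RPKM in WT and from 152 to 1468 in KO. It was high at 16 h (1508) and 36 h (1158) in WT, and at 16 h (1468) and 56 h (1446) in KO, the latter being the hours at which L1td1 was highest in KO. In WT, L1td1 was highest at 36 h and next at 20 h, where the endoderm sum was 353 RPKM, below its median of 402. Pluripotent markers summed to 3.98 to 17.9 RPKM in WT, highest at 20 h, and to 3.26 to 15.6 in KO, highest at 12 h. In WT no gene of either list was at 0 in all libraries, and in KO 1 pluripotent gene was. The endoderm sum did not return after 24 h (r = -0.35 in WT and -0.60 in KO over 6 pairs). For the pluripotent sum r was 0.26 in WT and -0.14 in KO. In pooled embryoid bodies, more cells of a type and more RNA per cell cannot be told apart, and the part of these cells in the profiles of Podxl and L1td1 was not tested.

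**Figure D2:**
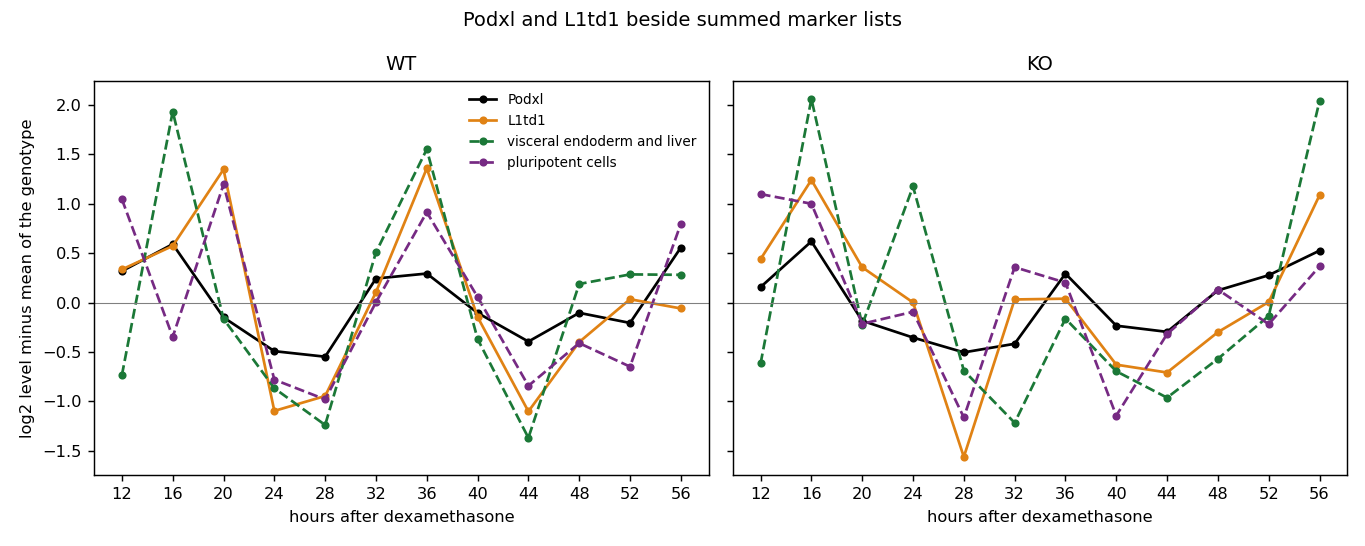
Log2 level minus the mean of the genotype for Podxl, L1td1 and the summed RPKM of the endoderm and pluripotent lists, against hours after dexamethasone, with WT on the left and KO on the right; each point is 1 library. In KO, L1td1 and the endoderm sum were both highest at 16 and 56 h, and all 4 lines were below their means at 28 and 44 h. In WT, L1td1 was highest at 36 and 20 h, and the endoderm sum at 16 and 36 h.

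Snhg3 was at 4.48 ± 0.719 RPKM in WT and 4.64 ± 0.845 in KO. In WT it ran from 3.57 RPKM at 28 h through a median of 4.39 to 5.47 at 56 h, and in KO from 3.40 at 48 h through a median of 4.70 to 5.80 at 36 h. A WT library held 22.5 to 46 fragments of it. The variance over hours was 0.866 times that of counting in WT and 1.13 times in KO, and the intervals of the lowest and the highest WT hour overlapped (2.26 to 5.36 and 3.97 to 7.34 RPKM). The total spread over hours was thus no larger than counting gives in WT and close to it in KO. WT and KO gave r = 0.17 over the 12 hours (0.64 without the 2 hours farthest from the median), and the best periods were 20 h in WT and 28 h in KO, the ends of the range allowed. Cosines of these periods held 75.0% and 67.6% of the detrended variance.

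Other small nucleolar RNA host genes moved with Snhg3 in part. Snhg1 and Snhg8 had r = 0.68 with it, but the median over the 16 expressed host genes was 0.23. The genes most like it were Limd2 (r = 0.74), Dhx16 (0.72), an RNA helicase, and Zpr1 (0.71), a zinc finger protein. Rcc1, the chromatin-bound exchange factor of RAN and its neighbour, had r = 0.60.

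AK213636 was at 6.48 ± 1.21 RPKM in WT and 5.93 ± 1.62 in KO. In WT it ran from 4.23 RPKM at 52 h through a median of 6.55 to 8.66 at 40 h, and in KO from 4.01 at 32 h through a median of 5.58 to 9.43 at 40 h. Both genotypes were highest at 40 h and overlapped over almost all of their range. These levels rested on 8 to 20.5 fragments per KO library and 11 to 23 per WT library, and the variance over hours was 0.541 times that of counting in WT and 1.05 times in KO. The lowest and the highest KO values had intervals that overlapped, 1.73 to 7.90 and 5.59 to 14.9 RPKM.

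The 24 h cosine of AK213636 peaked at 15.9 h (WT) and 16.1 h (KO). It held 71.0% and 77.3% of the detrended variance, where the clock genes held 67.0% to 94.4%. Hours 24 h apart gave r = 0.80 in WT and 0.69 in KO, and WT and KO gave r = 0.76 (0.53 without the 2 hours farthest from the median). Its median r with the clock genes was -0.60. Rnps1, the gene with the identical stretch, was at 5.86 ± 0.555 RPKM in WT and 5.78 ± 0.592 in KO, and had r = 0.02 with AK213636 in WT and 0.59 in KO. The genes most like AK213636 were Capg (r = 0.82), an actin capping protein, Atp5d (0.80), a subunit of ATP synthase, and Eif3d (0.78), a subunit of an initiation factor. The summed epithelial list had r = 0.66 with AK213636 (0.50 in WT and 0.81 in KO), and the summed endothelial list 0.55 (0.64 and 0.54). Gene by gene, the median r of epithelial markers was 0.16 in WT and 0.75 in KO, and over all libraries 8 of 20 had r over 0.5.

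Eef1a2 was at 3.30 ± 0.659 RPKM in WT and 2.22 ± 0.618 in KO. WT ran from 2.38 RPKM at 12 h through a median of 3.22 to 4.50 at 44 h, and KO from 1.49 at 12 h through a median of 1.92 to 3.52 at 52 h. KO was lower at 10 of 12 hours, although the ranges overlapped. By limma on log2(RPKM + 0.1) over all expressed genes, with Benjamini-Hochberg adjustment, the level fell by 0.57 on the log2 scale (SE 0.13), to 0.675 of the WT level (95% interval 0.564 to 0.808, adjusted p = 0.00189). In this comparison the 12 hours of each genotype served as its replicates. Its SE, interval and adjusted p thus measure spread over the hours of a line, not spread between lines. Of 15112 genes, 25.9% passed (11.2% higher and 14.7% lower in KO), so 1 of 5 is near the background. The other 4 genes did not pass, with adjusted p from 0.423 to 0.823 by limma. Their log2 differences had 95% intervals of -0.37 to 0.26 for Podxl, -0.53 to 0.75 for L1td1, -0.16 to 0.24 for Snhg3 and -0.42 to 0.12 for AK213636.

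Genes listed for related roles gave a frame for Eef1a2. Their counts are to be read beside all expressed genes, of which 11.2% were higher and 14.7% lower in KO. Of 14 genes listed for translation elongation, 4 rose in KO (Eef2k, Eef1g, Eif5a and Eef1b2) and 0 fell. Among these, Eef2k encodes a kinase that acts on an elongation factor and is not itself a factor. The median log2 difference of the list was 0.06, beside -0.01 over all genes. Eef1a1, the widely expressed form, was at 2078 ± 82.9 RPKM in WT and 2156 ± 63.8 in KO (limma adjusted p = 0.111). Of 13 neuronal markers 8 fell and 0 rose (median log2 difference -0.99), among them the neurofilament gene Nefl and the synaptic gene Snap25. Of 14 striated muscle markers 11 rose and 1 fell (median 0.77), among them Actc1, Mb and Myh7. The summed neuronal level was 6.66 to 53.8 RPKM in WT and 3.53 to 16.1 in KO, and the summed muscle level 52.6 to 95.2 and 75.0 to 140.0. Over hours, Eef1a2 had r = 0.29 in WT and -0.40 in KO with the neuronal sum, and 0.49 and 0.38 with the muscle sum. The largest part of the muscle sum was Tnnt2, the marker that fell (46.3 RPKM in WT and 37.3 in KO). Gene by gene, the median r of muscle markers with Eef1a2 was 0.31 in WT and 0.26 in KO, and over all libraries 2 of 14 had r over 0.5. The part of either cell type in the level of Eef1a2 was not tested.

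The other lists also held genes that passed, where 25.9% of all expressed genes did (11.2% higher and 14.7% lower in KO). Of the 16 expressed host genes of small nucleolar RNAs, Snhg11 fell in KO and the other 15 did not pass. Among 8 relatives and linkers of podocalyxin, Ezr, Msn and Emcn rose and Slc9a3r2 and Podxl2 fell. Of 10 pluripotent rows 0 passed, and of 16 endoderm genes 1 fell. Epithelial markers rose in 14 of 20 and endothelial markers in 6 of 14, with none falling in either list. Of 9 podocyte markers 1 rose and 4 fell, and of 12 smooth muscle and fibroblast markers 6 rose and 2 fell.

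**Figure D3:**
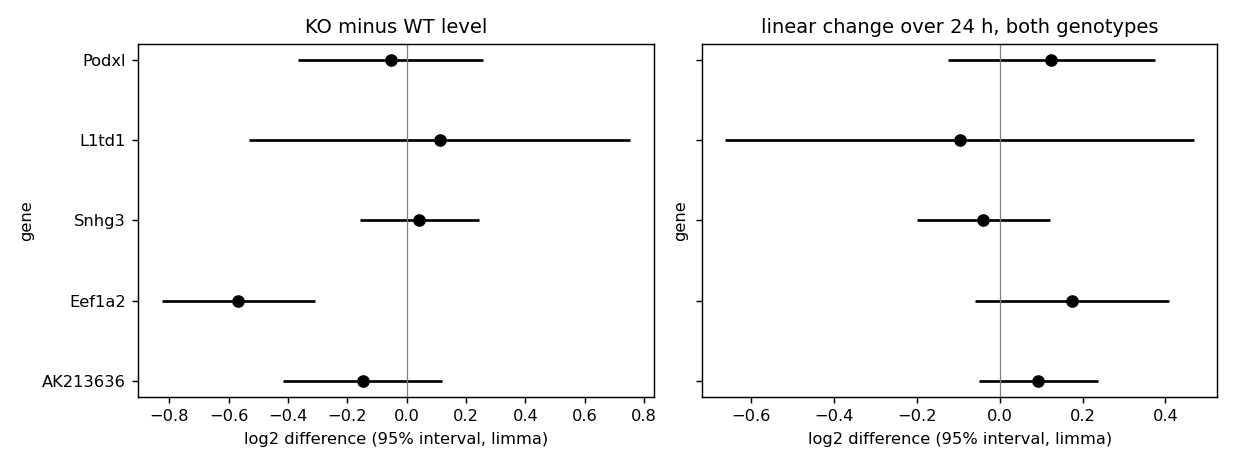
Differences between genotypes (left, KO minus WT) and linear change over 24 h in both genotypes (right) on the log2 scale for the 5 genes, each with its 95% limma interval from 24 libraries. The interval of Eef1a2 on the left lies below 0, and each of the others includes 0.

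The 24 h cosine of Eef1a2 peaked at 20.1 h in WT (SE 1.39 h) and at 5.19 h in KO (SE 1.12 h), 9.06 h apart. The 24 h peaks of the other 4 genes were 0.261 to 1.95 h apart, with SEs of up to 3.15 h. At its best periods, 20 h in WT and 28 h in KO, Snhg3 peaked at 17.04 h and 7.16 h. Because these periods differ, the distance between these peaks is not a shift, and 7.16 h lies before the first library, at 12 h. For Eef1a2, WT and KO gave r = -0.36 (-0.66 without the 2 hours farthest from the median). In KO the level was 1.49 to 2.54 RPKM up to 44 h and then 2.44, 3.52 and 3.23 at 48, 52 and 56 h. Its slope was 0.04 per 24 h on the log2 scale in WT (SE 0.12) and 0.31 in KO (SE 0.09). The difference in slope, 0.27 (limma 95% interval -0.05 to 0.60), did not pass (adjusted p = 0.805). In that test limma called 0 of 15112 genes (0%), with 964 (6.38%) at an unadjusted p under 0.05. The genes most like Eef1a2 were Spock2 (r = 0.73), a matrix proteoglycan, and Stc1 (0.70), a secreted glycoprotein. Their r was 0.88 and 0.80 in KO, and 0.43 and 0.49 in WT.

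A linear change shared by both genotypes was found in 0 of the 5 genes, where 8.32% of 15112 genes passed (4.37% rising and 3.95% falling). The slopes were -0.10 to 0.17 per 24 h on the log2 scale, with limma adjusted p from 0.398 to 0.883. The widest interval was that of L1td1, -0.66 to 0.47.

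The variation over the 24 libraries was then divided to set hour against day. The share held by the mean of the WT and the KO library of an hour was 87.9% for Podxl, 77.0% for L1td1, 59.1% for Snhg3, 36.3% for Eef1a2 and 86.3% for AK213636. The median over expressed genes was 56.6% and over the 8 clock genes 92.8%. Unrelated libraries do not score low on this share, and it falls where WT and KO move in opposite directions. The value of Snhg3 was near the median of expressed genes, and that of Eef1a2, with r = -0.36 between WT and KO, was below it. A 24 h cosine common to both genotypes held 36.3% for Podxl, 26.1% for L1td1, 38.2% for Snhg3, 13.2% for Eef1a2 and 71.0% for AK213636, beside medians of 10.02% for expressed genes and 82.5% for clock genes. In Podxl and L1td1 the larger part of the share held by the hour thus lay outside a 24 h cosine, and in AK213636 the smaller. This contrast depends on the period of 24 h. Within a genotype, a 24 h cosine held 59.0% (WT) and 22.2% (KO) of the detrended variance of Podxl, and 20.6% and 16.3% of that of L1td1. At the best periods these were 77.4% and 54.2% for Podxl, 48.9% and 52.0% for L1td1, and 74.1% and 77.6% for AK213636. For Snhg3 and Eef1a2, whose shares did not stand above the median by much or at all, no such reading is given. Whether the libraries of an hour were also prepared together is not given in the sources used here, so the hour and such handling cannot be told apart.

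**Figure D4:**
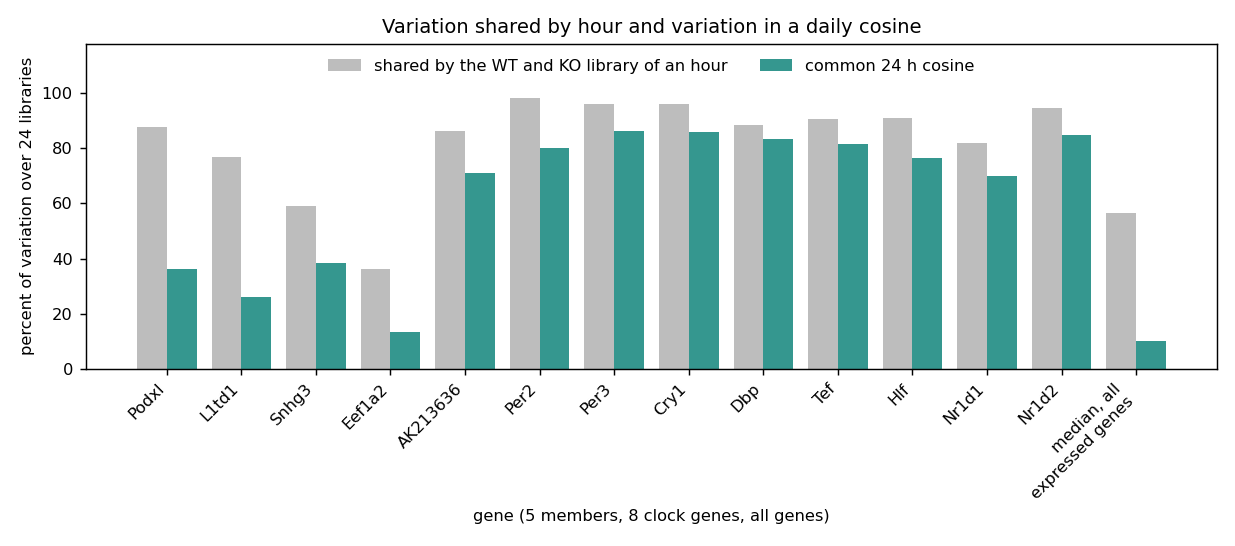
Percent of the variation over 24 libraries that was shared by the WT and KO library of an hour (grey) and held by a common 24 h cosine (green), for the 5 genes, 8 clock genes and the median of all expressed genes. Grey and green bars are close in the clock genes, and far apart in Podxl (87.9% and 36.3%) and L1td1 (77.0% and 26.1%). A grey bar is not empty for unrelated libraries, and is to be read against the median of all expressed genes.

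The rhythm measures that resemble those of the choice are given once. Relative amplitude, the 24 h amplitude over the fitted mean, was 0.292 in WT and 0.178 in KO for Podxl, 0.490 and 0.367 for L1td1, 0.130 and 0.154 for Snhg3, 0.197 and 0.205 for Eef1a2, and 0.222 and 0.356 for AK213636. The threshold of the choice was 0.17, which the study set on the amplitude given by MetaCycle, another measure. By the 24 h cosine 6.11% of expressed genes exceeded 0.17 in WT and 5.08% in KO, and Snhg3 lay under it in both genotypes. At its best periods Snhg3 lay above it, at 0.191 in WT and 0.200 in KO. Lomb-Scargle P was 0.114 to 0.488 over the 10 series, and 0.0132% of genes in WT and 0.0199% in KO were under 0.05. JTK_CYCLE P was under 0.05 for AK213636 in WT (0.0175) with ties kept, where 1.18% of genes were in WT and 1.3% in KO. These P values moved with how tied reference values were ranked. Over 6 versions of the calculation JTK_CYCLE P ran from 0.0325 to 0.0968 for Podxl and for Snhg3 in WT, and from 0.00193 to 0.0175 for AK213636 in WT. For Snhg3 in KO it ran from 0.0175 to 0.0968. For Eef1a2 it ran from 0.248 to 0.559 in WT and from 0.0325 to 0.0573 in KO. The series not named were not under 0.05 in any version, and nothing here rests on these P values.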

How the data were processed

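PolyA-selected RNA from 24 pools of 3 embryoid bodies was sequenced as 101-base read pairs with an unstranded kit (TruSeq v2). Per the submitters' notes, the authors used Trimmomatic 0.36, STAR 2.5.4b (GRCm38) and HOMER, dropped alignments of mapping quality below 10, and deposited exon RPKM. Use of strand is not given in the sources used here. The deposited coordinates and exonic lengths (score) accompany the values.

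Converted back with length and library total, 100% of RPKM values were steps of 0.5 fragment (tolerance 0.001). Library totals were 13654471.5 to 22694934.5. Intervals are exact Poisson. Genes were compared with limma 3.58.1 (R 4.3.3) on log2(RPKM + 0.1), two-sided, with adjusted p under 0.05; fold changes are on that scale, which understates low genes. WT and KO libraries of an hour share a number; the main fit was unpaired. Cosine fits (24 h, linear trend), correlations, JTK_CYCLE and Lomb-Scargle used Python 3.11.15, numpy 2.4.6, pandas 2.3.3 and scipy 1.17.1; figures used matplotlib 3.10.9. Scripts were tested on simulated data. The members and lists were chosen with earlier results of these data known.

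JTK_CYCLE was computed in 6 versions and Lomb-Scargle in 2, with the study's listed values in view. None of the JTK_CYCLE versions gave the listed values for these genes. The version given, with half-step lags and ties kept, was not chosen for its result. The Lomb-Scargle version, with the number of frequencies rounded down, was chosen because it gave the listed values in the few WT series compared. ARSER and MetaCycle were not run.

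Named genes are the 5 members, the clock genes, the 3 most correlated genes with a mean of at least 1 RPKM, neighbours within 10 kb and up to 3 per list by adjusted p; others were named after their values were seen, and 2 genes that this rule names are not reported here. Alternatives covered the pseudocount, low-value filter, hour as a block, quantile normalization, period, trend, scale and each hour left out.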

Additional observations from a re-analysis of the deposited data

How the results depend on the processing

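Each of the 258 limma alternatives for single members kept its direction where called and its side of the threshold, Eef1a2 included (log2 difference -0.65 to -0.51 over the hours left out). Genes called for genotype were 3918, and 3113 to 3948 without 1 hour; with the hour as a replicate block they were 4212, the block gave Eef1a2 an adjusted p of 0.00826 by limma, and it changed no member's call. WT and KO libraries of the same hour deviated from their group means with r of -0.18 to 0.39 across genes, over 0.1 in 7 of 12 pairs. Of 12 WT libraries, 5 correlated best with the KO library of their hour, and of 12 KO libraries 3 with the WT library of theirs. The main fit did not pair the hours because the study compared mean levels over 12 time points without pairing. The fit with the hour as a block is the paired alternative. Calls for a linear change numbered 1258, and 795 to 1325 without 1 hour, the 795 being without 40 h. The difference in slope had 0 calls, and 0 to 1 without 1 hour, the 1 being without 56 h. The causes were not tested. Without the linear trend the relative amplitude of Eef1a2 in KO was 0.283 in place of 0.205. Leaving out 1 hour moved the amplitude of L1td1 from 0.297 to 0.743 in WT and from 0.264 to 0.536 in KO. Letting rounding error split tied reference values raised the genes with a JTK_CYCLE P under 0.05 from 178 to as many as 489 in WT and from 196 to as many as 494 in KO, and full-step lags with ties kept gave 160 and 165. Snhg3 and AK213636 rest on few fragments, and their variance over hours was near that of counting. The share held by the hour was nevertheless 86.3% for AK213636, beside a median of 56.6% over expressed genes. The part of counting error in the profiles of Snhg3 and AK213636 was not tested. With 1 library per genotype and hour no statement on a single hour has a replicate.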
